A study of Mus musculus with 6 samples.

Results

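The genes of the small leucine-rich proteoglycans were examined in clonal bone marrow stromal colonies. These were the 10 genes Dcn, Bgn, Lum, Fmod, Ogn, Omd, Aspn, Prelp, Podn and Ecm2, chosen by symbol as this matrix family, and all 10 of 10 were among the 14735 genes measured. Their products are secreted proteins with a leucine-rich repeat core, most of which carry chondroitin, dermatan or keratan sulfate chains. They bind collagen fibrils, set fibril width and spacing, and hold growth factors such as TGF-beta in the matrix. In bone and tendon, biglycan and fibromodulin are known as parts of the matrix in which skeletal and tendon progenitors reside. Ecm2 encodes a leucine-rich repeat matrix protein related to decorin and was listed with the family by the rule.

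The colonies were colony-forming unit-fibroblasts (CFU-Fs), each grown from a bone marrow cell plated at clonal density. All came from 2-month-old C57BL/6 mice carrying Col10a1Cre and a Cre-dependent Rosa26 tdTomato reporter, and were grown in hypoxia to day 10. The 3 tdTOMATO+ CFU-Fs were fluorescent through recombination of the reporter by Col10a1Cre, which is expressed from the control region of a hypertrophic chondrocyte gene, and the 3 tdTOMATO- CFU-Fs carried the same alleles without reporter fluorescence. Col10a1 transcript itself was found in every colony, with 634, 521 and 529 normalized counts in the tdTOMATO+ colonies and 597, 1178 and 799 in the tdTOMATO- colonies. The comparison addresses whether CFU-Fs with a hypertrophic chondrocyte history differ in expression from the other CFU-Fs of the same marrow. Each library is the RNA of 1 whole colony, so it holds every cell inside 1 cloning cylinder. Nothing in the labels says that colonies of a group came from separate mice, so p-values measure the spread between these colonies, which may be technical.

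Recovered reads in genes ranged between 25626440 and 31046589 in the tdTOMATO+ colonies and between 24085516 and 28644201 in the tdTOMATO- colonies. All 8 of 8 marrow stroma markers were detected in every colony, with a summed normalized count of 556717 to 722622 in the tdTOMATO+ colonies and 676185 to 798660 in the tdTOMATO- colonies. A gene is called here where its adjusted p over all genes was below 0.05. limma and edgeR called 0 of the 8, and DESeq2 called Lepr, the leptin receptor, higher (408, 354 and 1132 normalized counts in the tdTOMATO+ colonies, against 97.3, 69.4 and 108 in the tdTOMATO- colonies, limma adjusted p = 0.0647, DESeq2 adjusted p = 4.93e-09). The 15 macrophage markers were also detected in every colony, none at 0. They summed to 68611 to 73299 in the tdTOMATO+ colonies and 39075 to 39544 in the tdTOMATO- colonies. Of the 15, 11 were called higher by limma and by edgeR and 13 by DESeq2, beside 1.2%, 1.15% and 3.52% of genes. Without tdTOMATO+ replicate 1 or 2, 1 of the 15 was called by limma, and without tdTOMATO- replicate 2, 2 were. The 7 osteoblast markers, none at 0, summed to 124142 to 142814 in the tdTOMATO+ colonies and 57323 to 107665 in the tdTOMATO- colonies. limma and edgeR called 0 of the 7, and DESeq2 called 2 higher, Ibsp and Runx2, beside 3.52% of genes. Their limma log2 fold changes were 2.16 (limma adjusted p = 0.0757) and 0.44 (limma adjusted p = 0.0921). The groups did not overlap for 3 of the 7, Ibsp, Runx2 and Alpl, all higher, beside 9.89% of all genes. Of the 7, 5 had log2 fold changes above 0 and 2 below, Bglap (-0.62) and Sp7 (-0.17). The summed macrophage markers and the summed osteoblast markers did not overlap between the groups, and the sums were not tested. Spp1, a large part of the osteoblast sum, overlapped between groups, with its lowest value in tdTOMATO- replicate 1 (15929 normalized counts). The same colonies underlie every comparison that follows. The part of the macrophage and osteoblast markers in those results was not tested. In whole-colony RNA, fewer cells of a type and less RNA per cell cannot be told apart.

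The genes sit partly in clusters, which is why the positions and 4 promoters are given before the values. Ecm2 (ENSMUSG00000043631, 49504810 to 49532789), Aspn (ENSMUSG00000021388, 49544443 to 49567565), Omd (ENSMUSG00000048368, 49582462 to 49592822) and Ogn (ENSMUSG00000021390, 49608046 to 49624501) follow each other on the plus strand of chromosome 13 of GRCm38, within 119.7 kb. Prelp (ENSMUSG00000041577, 133910304 to 133921414, minus strand) and Fmod (ENSMUSG00000041559, 134037254 to 134048277, plus strand) lie on chromosome 1 beside the opticin gene Optc. Dcn (ENSMUSG00000019929, 97479609 to 97518143) and Lum (ENSMUSG00000036446, 97565128 to 97572703) lie on the plus strand of chromosome 10, next to Kera and Epyc, which were not measured. Bgn (ENSMUSG00000031375) spans 73483602 to 73495933 on the plus strand of chromosome X, and Podn (ENSMUSG00000028600) spans 108014791 to 108096445 on the minus strand of chromosome 4. The counting is not stated to use strand, so reads shared with a gene on the opposite strand could not be told apart. Cenpp, a centromere protein gene, covers the 4 chromosome 13 genes on the minus strand, but its exons share 7 bases with Aspn and 0 bases with the other three. Cenpp had 142, 112 and 98.5 normalized counts in the tdTOMATO+ colonies and 149, 94.5 and 174 in the tdTOMATO- colonies. Prelp shares 350 exonic bases with the antisense gene Gm15851, which was not measured.

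Promoters of 8 of the 10 genes were matched by symbol in RefSeq sequence of GRCm38.p6, with none matched for Dcn and Lum. Each runs 250 bases before to 50 bases after a RefSeq start, 300 bases in all. The 4 promoters of the chromosome 13 cluster are shown because the log2 fold changes of these neighbours, of which limma called none, lay on both sides of 0. Capitals mark matches, on either strand, to TATAAA (the TATA box), CCAAT (the CCAAT box), GGGCGG (the GC box), TGTGGT (the motif of RUNX factors, which drive osteoblast genes) and TGANTCA (the AP-1 motif), with N for any base. The windows are chr13:49504560-49504859 for Ecm2, chr13:49544193-49544492 for Aspn, chr13:49582212-49582511 for Omd and chr13:49607765-49608064 for Ogn, all on the plus strand.
Ecm2 promoter: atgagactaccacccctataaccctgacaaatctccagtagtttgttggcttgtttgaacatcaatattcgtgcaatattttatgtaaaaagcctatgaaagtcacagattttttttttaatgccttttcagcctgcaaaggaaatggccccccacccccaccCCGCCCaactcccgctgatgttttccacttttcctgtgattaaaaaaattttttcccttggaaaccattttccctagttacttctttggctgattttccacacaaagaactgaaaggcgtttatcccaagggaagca
Aspn promoter: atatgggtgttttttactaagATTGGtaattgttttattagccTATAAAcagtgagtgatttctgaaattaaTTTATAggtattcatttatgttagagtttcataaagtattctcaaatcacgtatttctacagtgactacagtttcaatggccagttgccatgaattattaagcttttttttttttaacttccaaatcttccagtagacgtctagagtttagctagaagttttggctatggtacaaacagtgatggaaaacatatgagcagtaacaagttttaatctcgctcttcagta
Omd promoter: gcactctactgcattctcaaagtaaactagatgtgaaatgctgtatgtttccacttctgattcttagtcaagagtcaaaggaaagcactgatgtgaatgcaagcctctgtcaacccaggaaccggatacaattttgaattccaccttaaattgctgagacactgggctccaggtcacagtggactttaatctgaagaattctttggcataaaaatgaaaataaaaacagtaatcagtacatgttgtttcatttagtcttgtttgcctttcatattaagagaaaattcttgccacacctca
Ogn promoter: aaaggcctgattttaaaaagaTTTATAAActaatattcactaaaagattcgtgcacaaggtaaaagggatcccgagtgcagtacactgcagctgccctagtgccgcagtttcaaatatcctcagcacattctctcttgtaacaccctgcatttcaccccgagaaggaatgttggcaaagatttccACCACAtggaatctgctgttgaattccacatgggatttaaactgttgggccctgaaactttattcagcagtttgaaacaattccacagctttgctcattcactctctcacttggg
Ecm2 held a GC box match 87 bases before its start. Aspn held a CCAAT match and a pair of TATAAA matches, beginning 229, 207 and 178 bases before its start. Omd held no match to these 5 motifs. Ogn held a pair of overlapping TATAAA matches, beginning 229 and 227 bases before its start, and a RUNX motif match 65 bases before it. Of 32851 promoters of this length, 13.6% held TATAAA, 37.4% CCAAT, 35.7% GGGCGG, 16.8% TGTGGT and 7.81% TGANTCA. The GC content was 41.0% for Ecm2, 31.0% for Aspn, 37.7% for Omd and 42.3% for Ogn, against a median of 52.7% over all promoters of this length. A match describes letters only.

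Across the family, levels spanned several orders of magnitude, with biglycan at the top and lumican or podocan at the bottom. To compare genes, normalized counts were divided by transcript length in kb. Per kb, the level order in the tdTOMATO+ colonies was Bgn, Ogn, Fmod, Omd, Aspn, Prelp, Dcn, Ecm2, Podn and Lum. Per kb, the level order in the tdTOMATO- colonies was Bgn, Ogn, Aspn, Fmod, Omd, Prelp, Ecm2, Dcn, Lum and Podn. Neighbours in the tdTOMATO+ order whose colonies overlapped were Omd and Aspn, Aspn and Prelp, and Dcn and Ecm2. In the tdTOMATO- order these were Ogn and Aspn, Aspn and Fmod, Ecm2 and Dcn, Dcn and Lum, and Lum and Podn. Decorin, which is abundant in many fibroblast cultures, was a minor member here, at 125 ± 120 per kb in the tdTOMATO+ colonies and 169 ± 146 per kb in the tdTOMATO- colonies, against 39487 ± 2115 and 44328 ± 5459 per kb for Bgn in the tdTOMATO+ and tdTOMATO- colonies (SD, n = 3 each).

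**Figure D1:**
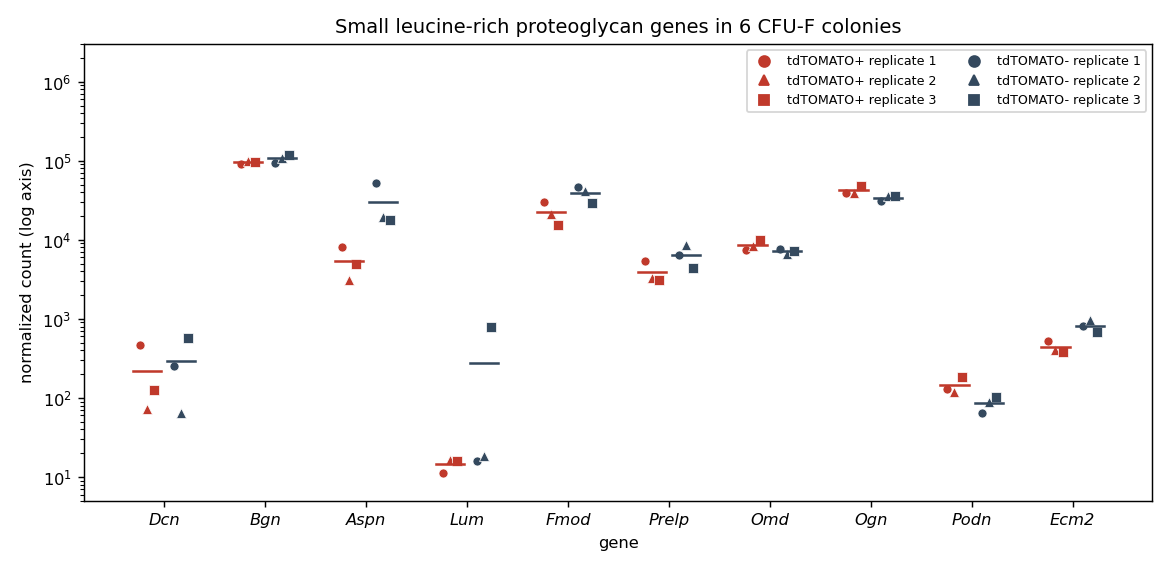
Normalized count (log axis) of each of the 10 genes in 3 tdTOMATO+ CFU-Fs (left, red) and 3 tdTOMATO- CFU-Fs (right, dark), with a symbol for each replicate and a line at the group mean. Aspn, Ecm2, Ogn and Podn have no overlap between groups, and Lum stands at 796 in tdTOMATO- replicate 3 only.

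None of the 10 genes was called between the groups. The test was limma on log2(normalized count + 1), and a call needed a Benjamini-Hochberg adjusted p, taken over the 14735 genes, below 0.05. The background was 1.2% of genes called higher (177) and 0.143% called lower (21) in the tdTOMATO+ colonies. At an unadjusted p under 0.05, 2 of 10 members were higher (Ogn and Podn) and 3 lower (Fmod, Aspn and Ecm2), beside 7.53% and 4.79% of all genes. The groups did not overlap for 2 members that were higher (Ogn and Podn) and 2 that were lower (Aspn and Ecm2), beside 9.89% and 8.33% of all genes. edgeR's quasi-likelihood test on recovered reads also called 0 of 10, against a background of 1.15% higher and 0.129% lower. DESeq2 on the same reads called 3 of 10 lower (Aspn, Ecm2 and Fmod) and 0 higher, and gave no adjusted p for Lum. Its background was 1.12% called lower and 3.52% called higher, of the 14155 genes with an adjusted p. The median log2 fold change over the 10 genes was -0.55, with 3 above 0 and 7 below, beside a median of -0.0046 over all genes. It was -1.0 without tdTOMATO+ replicate 1 and -0.16 without tdTOMATO- replicate 3. The 177 higher and 21 lower calls over the whole table changed with the colony left out: among the tdTOMATO+ colonies, to 9 higher with 8 lower (replicate 1), 1 with 0 (replicate 2) and 103 with 10 (replicate 3), and among the tdTOMATO- colonies, to 178 with 44 (replicate 1), 15 with 1 (replicate 2) and 97 with 14 (replicate 3).

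**Figure D2:**
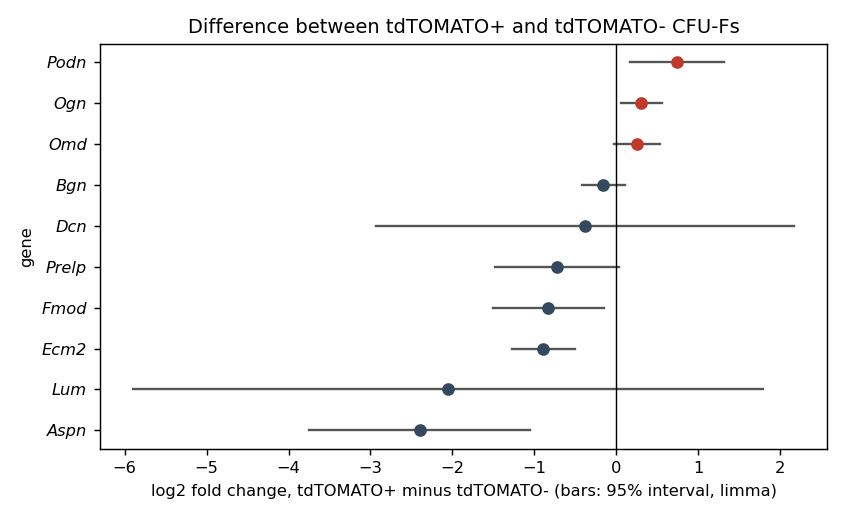
Log2 fold change, tdTOMATO+ minus tdTOMATO-, of each gene, with its 95% interval from limma (3 colonies in each group). Aspn (-2.40) and Ecm2 (-0.89) lie lowest among the genes whose intervals stay below 0, and the intervals of Lum and Dcn are the widest.

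Among the decorin-like members, asporin had the largest fold change. Aspn encodes a collagen-binding protein that also binds TGF-beta and is known in periosteum, tendon and the periodontal ligament. It had 8025, 3099 and 4877 normalized counts in the tdTOMATO+ colonies, against 52156, 19432 and 17645 in the tdTOMATO- colonies. Every tdTOMATO+ colony was below every tdTOMATO- colony, and replicate 1 was the highest of each group. The mean was 5334 ± 2495 in tdTOMATO+ and 29744 ± 19430 in the tdTOMATO- colonies (SD, n = 3 each), 5.58-fold lower in tdTOMATO+. The log2 fold change was -2.40 with an SE of 0.54 (95% interval -3.75 to -1.05), which did not pass limma over all genes (adjusted p = 0.148), nor edgeR (adjusted p = 0.159), but passed DESeq2 (adjusted p = 0.00741). With a colony left out in turn, the log2 fold change stayed between -2.75 and -1.90.

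Biglycan, a chondroitin or dermatan sulfate proteoglycan of bone matrix and a Toll-like receptor ligand, was the family's most abundant transcript. Bgn had 89998, 100103 and 96457 normalized counts in the tdTOMATO+ colonies, against 93339, 108727 and 119620 in the tdTOMATO- colonies. The groups overlapped, and the highest colony was 1.33 times the lowest, the narrowest range of the 10 genes. Its log2 fold change was -0.16 (SE 0.11, 95% interval -0.42 to 0.10, limma adjusted p = 0.654).

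Decorin, the family's prototype and a regulator of collagen fibril width, varied within groups instead. Dcn had 462, 72.9 and 127 normalized counts in the tdTOMATO+ colonies, against 254, 64.6 and 571 in the tdTOMATO- colonies. Its colonies were spread over 8.85-fold with the groups fully interleaved. The log2 fold change of -0.38 (SE 1.02, 95% interval -2.93 to 2.17, limma adjusted p = 0.933) became 0.19 without tdTOMATO+ replicate 2 and 0.34 without tdTOMATO- replicate 3.

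Fibromodulin and PRELP were the pair on chromosome 1. Fibromodulin binds collagen and is needed for normal tendon fibrils. Fmod had 30251, 21421 and 15492 normalized counts in the tdTOMATO+ colonies, against 46723, 41192 and 29404 in the tdTOMATO- colonies. Only tdTOMATO+ replicate 1 reached into the tdTOMATO- range, above tdTOMATO- replicate 3. Its log2 fold change was -0.83 (SE 0.28, 95% interval -1.51 to -0.15), which did not pass limma (adjusted p = 0.299) and passed DESeq2 (adjusted p = 0.0239).

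PRELP is a heparin-binding member found in cartilage and at basement membranes. Prelp had 5369, 3255 and 3141 normalized counts in the tdTOMATO+ colonies, against 6453, 8607 and 4451 in the tdTOMATO- colonies. The groups overlapped between tdTOMATO+ replicate 1 and tdTOMATO- replicate 3, the same colonies as for Fmod. The log2 fold change was -0.72 (SE 0.31, 95% interval -1.48 to 0.03, limma adjusted p = 0.425). The ratio of Fmod to Prelp was 5.63, 6.58 and 4.93 in the tdTOMATO+ colonies, against 7.24, 4.79 and 6.61 in the tdTOMATO- colonies. The ratio overlapped between groups. Optc, their neighbour and itself a family member outside the rule, stood at 42.3, 33.4 and 39.2 normalized counts in tdTOMATO+ and 84.7, 47.2 and 28.1 in the tdTOMATO- colonies, with overlap.

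Lumican, which regulates collagen fibrils in cornea and skin, was near the bottom of the range in 5 of 6 colonies. Lum had 11.3, 16.3 and 16.1 normalized counts in the tdTOMATO+ colonies, against 16.0, 18.3 and 796 in the tdTOMATO- colonies. The single high colony, tdTOMATO- replicate 3, set the difference, and the log2 fold change of -2.06 (SE 1.55, 95% interval -5.90 to 1.79, limma adjusted p = 0.697) was -0.24 without it. On recovered reads edgeR gave -4.23 (adjusted p = 0.418). That colony also had the highest Dcn count of all 6, and held 161 normalized counts of Acan, the cartilage proteoglycan aggrecan. Acan was 2.06, 0 and 0 in the tdTOMATO+ colonies and 4.58 and 0.964 in the other tdTOMATO- colonies. Acan was named here after its values had been seen, and its link with Lum was not tested. The other chondrocyte markers did not peak together in that colony, where Sox9 and Col2a1 were at the top of the 6 colonies (1562 and 136159) but Hapln1 was at the bottom of its group (42.1, against 92.7 and 81.9) and Comp (347) and Col10a1 (799) lay inside the range of the others. The 6 chondrocyte markers measured summed to 20373 to 131521 in tdTOMATO+ and 67444 to 139070 in the tdTOMATO- colonies, a sum made up mostly of Col2a1. All 6 had log2 fold changes below 0, with a median of -0.70, so they moved in the direction of most members, and their part in the members' values was not tested. limma and edgeR called 0 of the 6. DESeq2 called Sox9 lower (log2 fold change -0.77, limma adjusted p = 0.183, DESeq2 adjusted p = 0.00807), beside 1.12% of genes.

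Osteomodulin and osteoglycin, which also lie in the chromosome 13 cluster, had log2 fold changes above 0. Osteomodulin is an acidic proteoglycan of mineralized matrix made by osteoblasts. Omd had 7426, 8376 and 10070 normalized counts in the tdTOMATO+ colonies, against 7743, 6564 and 7305 in the tdTOMATO- colonies. The groups overlapped, with tdTOMATO+ replicate 1 inside the tdTOMATO- range, and the log2 fold change was 0.25 (SE 0.12, 95% interval -0.03 to 0.53, limma adjusted p = 0.463).

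Osteoglycin, also called mimecan, is secreted by bone and muscle cells and had the second level per kb after Bgn. Ogn had 39616, 39580 and 47357 normalized counts in the tdTOMATO+ colonies, against 30769, 35602 and 36132 in the tdTOMATO- colonies. Every tdTOMATO+ colony was above every tdTOMATO- colony by a narrow margin, 1.23-fold between the means. The log2 fold change was 0.30 (SE 0.11, 95% interval 0.05 to 0.55) and did not pass over all genes (limma adjusted p = 0.298).

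Ecm2, at the other end of the cluster, came closest to the limma threshold. Ecm2 had 528, 404 and 383 normalized counts in the tdTOMATO+ colonies, against 806, 957 and 677 in the tdTOMATO- colonies. The groups did not overlap, and the mean was 1.86-fold lower in tdTOMATO+. The log2 fold change was -0.89 (SE 0.17, 95% interval -1.28 to -0.50). The adjusted p was 0.0553 by limma, 0.0585 by edgeR and 1.68e-04 by DESeq2.

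Podn encodes podocan, described in vascular smooth muscle as a brake on proliferation and migration. Podn had 128, 120 and 184 normalized counts in the tdTOMATO+ colonies, against 65.3, 88.7 and 104 in the tdTOMATO- colonies. The groups did not overlap, and the mean was 1.67-fold higher in tdTOMATO+. The log2 fold change of 0.74 (SE 0.25, 95% interval 0.16 to 1.31) did not pass over all genes (limma adjusted p = 0.274). Between 57 and 183 recovered reads lie behind each value, so counting error weighs more here than for the abundant members.

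**Figure D3:**
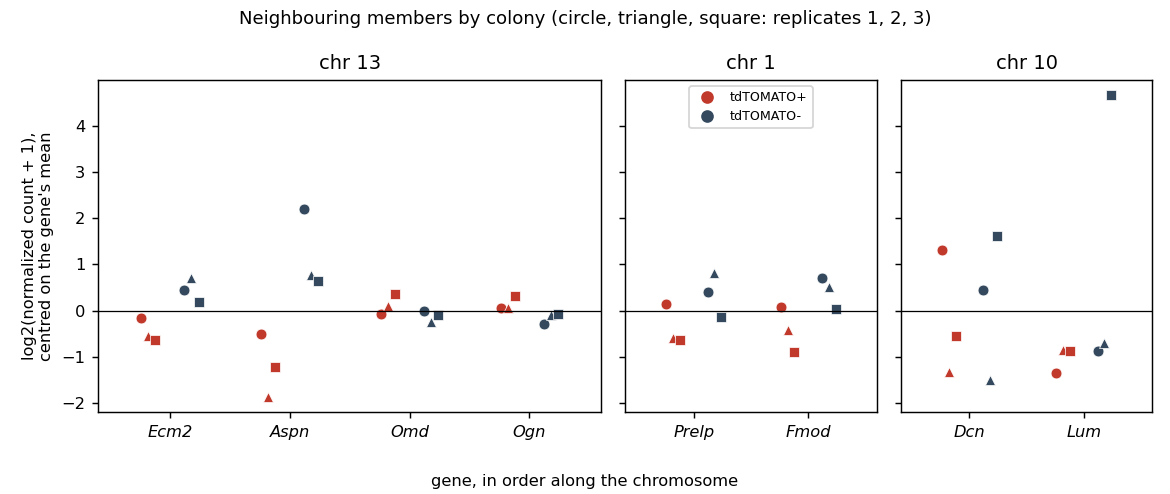
Log2(normalized count + 1) of neighbouring genes, centred on each gene's mean over the 6 colonies, in their order along chromosomes 13, 1 and 10, with tdTOMATO+ CFU-Fs left (red) and tdTOMATO- CFU-Fs right (dark). On chromosome 13 Ecm2 and Aspn lie lower in the tdTOMATO+ colonies while Ogn lies slightly higher, and on chromosome 10 the Dcn groups interleave while Lum is high in 1 colony.

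The contrast inside the chromosome 13 cluster can be read within each colony, as a ratio of genes from the same library. The ratios were chosen with the members' values known, so they restate those values and are given with no test. Aspn to Ogn was 0.203, 0.0783 and 0.103 in the tdTOMATO+ colonies, against 1.7, 0.546 and 0.488 in the tdTOMATO- colonies, 6.52-fold lower by geometric means. Aspn to Omd was 1.08, 0.370 and 0.484 in the tdTOMATO+ colonies, against 6.74, 2.96 and 2.42 in the tdTOMATO- colonies. Ecm2 to Ogn was 0.0133, 0.0102 and 0.00808 in the tdTOMATO+ colonies, against 0.0262, 0.0269 and 0.0187 in the tdTOMATO- colonies. By contrast, Ogn to Omd was 5.34, 4.73 and 4.70 in the tdTOMATO+ colonies, against 3.97, 5.42 and 4.95 in the tdTOMATO- colonies, with overlap. Each is a ratio of normalized counts within a library, so its value does not depend on how libraries were scaled. Fmod to Bgn had a log2 difference of -0.67 and Dcn to Bgn of -0.22.

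Summed over the 10 genes, the family took 0.688%, 0.663% and 0.664% of reads in the tdTOMATO+ colonies, against 0.864%, 0.801% and 0.808% in the tdTOMATO- colonies. At this depth the 95% Wilson interval around each share is narrow, for instance 0.685% to 0.691% in tdTOMATO+ replicate 1, and covers counting error only. Per kb the sum was 71027, 69826 and 70980 in the tdTOMATO+ colonies, against 93570, 86005 and 85883 in the tdTOMATO- colonies. Without Aspn it was 67581, 68495 and 68885 in the tdTOMATO+ colonies, against 71176, 77662 and 78306 in the tdTOMATO- colonies, which makes a log2 difference of -0.15, beside -0.32 with Aspn. Aspn made up 4.85%, 1.91% and 2.95% of the family's sum per kb in the tdTOMATO+ colonies, against 23.9%, 9.70% and 8.82% in the tdTOMATO- colonies. Ogn made up 21.7%, 22.1% and 26% in the tdTOMATO+ colonies, against 12.8%, 16.1% and 16.4% in the tdTOMATO- colonies.

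**Figure D4:**
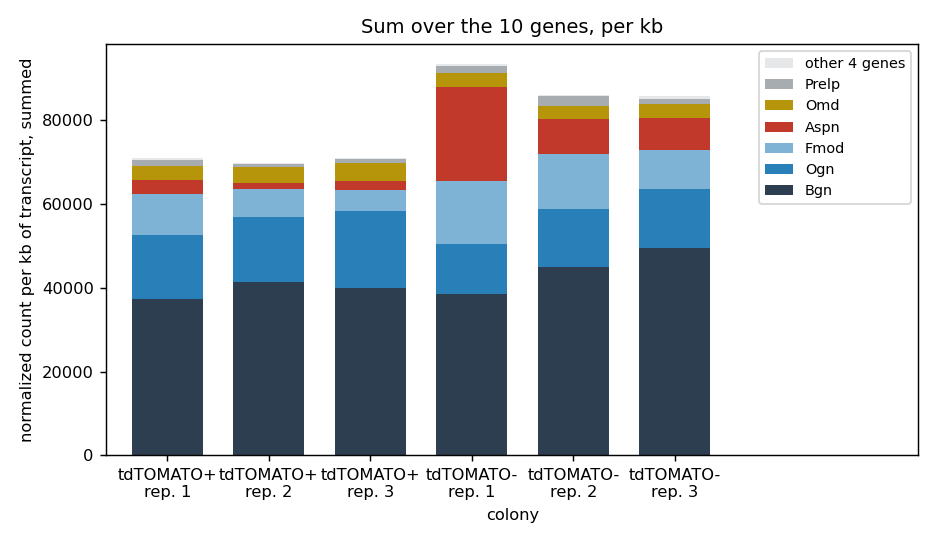
Normalized counts per kb of transcript, summed over the 10 genes in each colony, with 3 tdTOMATO+ CFU-Fs left and 3 tdTOMATO- CFU-Fs right and each gene's part stacked. The sums lie at 69826 to 71027 in tdTOMATO+ and 85883 to 93570 in the tdTOMATO- colonies, and the Aspn segment is the one that differs most between the groups.

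Colonies of the same group also differed from each other. Within the tdTOMATO+ colonies, replicate 1 was the highest for 5 of 10 genes, Dcn, Fmod, Aspn, Prelp and Ecm2. Within the tdTOMATO- colonies, replicate 3 was the lowest for 4 genes, Fmod, Aspn, Prelp and Ecm2, and the highest for 5, Dcn, Bgn, Lum, Ogn and Podn. A score per colony, the median over the 10 genes of centred log2 values, was -0.01, -0.49 and -0.59 in the tdTOMATO+ colonies and 0.19, 0.01 and 0.11 in the tdTOMATO- colonies. The 5 genes whose levels over the 6 colonies followed this score most closely, of 11662 genes averaging 50 or more normalized counts, were Hmg20b and Vti1b (Pearson r = 0.993 each), Agtr1a (0.991), Prorsd1 (0.989) and Snrpf (0.989). These correlations share the libraries of the score and are given as a description.

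Among genes tied to the family by function, TGF-beta receptor 2 was the 1 gene called by limma and by edgeR. Tgfbr2, the receptor for the ligands that decorin, biglycan and asporin bind, had 4207, 4255 and 5266 normalized counts in the tdTOMATO+ colonies, against 3011, 2738 and 2688 in the tdTOMATO- colonies. Its groups did not overlap, and it rose by 0.70 on the log2 scale (SE 0.10, limma adjusted p = 0.0249). The call was lost with a colony left out, at an adjusted p of 0.0678 without tdTOMATO+ replicate 1, 0.0942 without tdTOMATO+ replicate 2, 0.103 without tdTOMATO- replicate 2 and 0.0725 without tdTOMATO- replicate 3, with log2 fold changes of 0.66 to 0.75. Over the whole table, limma called 1.2% of genes higher and 0.143% lower, and DESeq2 3.52% and 1.12%. Of 21 measured partners, limma called 1 higher and 0 lower and DESeq2 3 higher and 0 lower, with a median log2 fold change of 0.08. The others that DESeq2 called were the pattern receptor genes Tlr2 (0.56, limma adjusted p = 0.0856, DESeq2 adjusted p = 0.00927) and Cd14 (0.79, limma adjusted p = 0.0894, DESeq2 adjusted p = 9.44e-04), of which Cd14 is also on the macrophage list given above.

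Of the 14 collagen genes listed as bound by the family, limma and edgeR called 0. DESeq2 called 2 of them lower (Col12a1 and Col5a1), beside 1.12% of genes. Of the 14 log2 fold changes, 12 were below 0, and the median was -0.26. The smallest p belonged to Col12a1, a collagen on fibril surfaces, with 109543, 120549 and 117114 normalized counts in the tdTOMATO+ colonies, against 222461, 155943 and 186418 in the tdTOMATO- colonies. Its groups did not overlap (log2 fold change -0.69, SE 0.14, limma adjusted p = 0.0652). Col5a1, which limits fibril width, had a log2 fold change of -0.33 (adjusted p = 0.222) and Col3a1 of -0.56 (adjusted p = 0.374).

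Of the 23 enzymes of chondroitin and dermatan sulfate synthesis, limma and edgeR called 0, and the median log2 fold change was -0.05. DESeq2 called 1 of them higher (Chst11) and 2 lower (Chsy3 and Chpf), beside 3.52% and 1.12% of genes. Chst11, which sulfates chondroitin at the 4 position, had 1301, 1513 and 1625 normalized counts in the tdTOMATO+ colonies, against 892, 1041 and 1066 in the tdTOMATO- colonies (log2 fold change 0.56, limma adjusted p = 0.0595, DESeq2 adjusted p = 0.00101). The chain polymerase genes Chsy3 (-0.78, limma adjusted p = 0.111, DESeq2 adjusted p = 0.0047) and Chpf (-0.32, limma adjusted p = 0.158, DESeq2 adjusted p = 0.0451) had values of the opposite sign. Of 6 measured genes for keratan sulfate synthesis and core fucosylation, limma, edgeR and DESeq2 called 0 (median 0.08), and those with the smallest p were Chst1 (0.61), Fut8 (0.17) and B4galt4 (-0.30).

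Of 21 other proteoglycans measured, limma and edgeR called 0, and the median log2 fold change was 0.07. DESeq2 called 1 of them higher (Srgn) and 1 lower (Cspg4), beside 3.52% and 1.12% of genes. Cspg4, the cell surface proteoglycan NG2 of pericytes and stromal progenitors, had 777, 594 and 413 normalized counts in the tdTOMATO+ colonies, against 1156, 1262 and 1280 in the tdTOMATO- colonies (log2 fold change -1.10, limma adjusted p = 0.0804, DESeq2 adjusted p = 7.88e-05). Bcan (-0.92, limma adjusted p = 0.172) was below 0, and Srgn, the proteoglycan of haematopoietic granules, was above it (0.90, limma adjusted p = 0.258, DESeq2 adjusted p = 0.0281). Of the other 8 family genes listed, 4 were measured and limma, edgeR and DESeq2 called 0 (median -0.22). Of these 4, 1 had a log2 fold change above 0 and 3 below, Chadl at -0.59, Optc at -0.33 and Tsku at -0.11.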

How the data were processed

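RNA of 6 CFU-F colonies (3 tdTOMATO+, 3 tdTOMATO-) was sequenced in 50 bp single reads. TrimGalore with Cutadapt was used by the authors for trimming, STAR for mapping to GRCm38 (unique alignments only), HTSeq for counting and DESeq2 for normalization, and genes below 10 reads in all libraries had been removed (versions and strand setting not given in the sources used here). The deposited signal is the normalized count per gene and library. The deposited columns of the authors' own comparison (fold change, SE, p-values) and the ontology sheets were not used.

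In each library 100% of values were whole multiples (tolerance 0.001) of what 1 read is worth, so read counts were recovered. limma (3.58.1, R 4.3.3, trend and robust) was fitted to log2(normalized count + 1) of all 14735 genes, two-sided, with Benjamini-Hochberg adjustment at 0.05. The pseudocount makes fold changes of low genes smaller. edgeR (4.0.16, TMM) and DESeq2 (1.42.0) were run on recovered reads. In simulated data of this comparison (14735 genes), the changed genes were drawn from those averaging 50 or more normalized counts. There limma recovered 61 of 100 genes changed 1.7-fold and 96 of 100 changed 4-fold, with 16 false calls of 173. DESeq2 recovered 75 and 98 with 50 false calls of 223. Lengths and positions are from GENCODE M21 (longest basic protein-coding transcript). All 10 members were named, with the genes past the threshold and the 3 smallest p of each related list, the 5 genes most like the member score, and genes among or over the clusters. The members and lists were chosen with earlier results of these data known.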

Additional observations from a re-analysis of the deposited data

How the results depend on the processing

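The members called depended on the tool. 0 of 10 were called in either direction by limma with a pseudocount of 0.5 or 10, on genes averaging 50 or more normalized counts, without robust, without the trend, with TMM or total-read scaling, with any colony left out, or by edgeR. DESeq2 called 3 lower, with 498 genes higher and 159 lower in all, and gave no adjusted p for Lum. Without the trend, limma called 1 gene higher and 0 lower, and none of the macrophage markers or Tgfbr2 (adjusted p = 0.109). An unadjusted p under 0.05 with at least a 2-fold difference held for 1 of 10 members lower (Aspn) and 0 higher. It held for 125 of the 14735 genes lower and 225 higher. With the replicate number as a block, 2 members were called lower (Fmod, limma adjusted p = 0.0375, and Aspn, limma adjusted p = 0.0369). In that fit 124 genes were called higher and 24 lower over the whole table, and Tgfbr2 was not called (limma adjusted p = 0.0514). Same-numbered colonies had deviations correlating at 0.10, 0.0123 and 0.20. tdTOMATO+ replicates 1 and 3 correlated best with their own number, and tdTOMATO+ replicate 2 with tdTOMATO- replicate 1 (0.0866). The labels do not state pairs, so the numbers were not taken as pairs. These correlations do not settle whether the colonies were paired. With a colony left out, genes called higher ranged from 1 to 178 and lower from 0 to 44, with 1 higher and 0 lower when tdTOMATO+ replicate 2 was left out. The members' median log2 fold change ranged from -1.0 (without tdTOMATO+ replicate 1) to -0.16 (leaving out tdTOMATO- replicate 3). For Dcn it ranged from -1.23 to 0.34, turning positive when tdTOMATO+ replicate 2 (0.19) or tdTOMATO- replicate 3 (0.34) was dropped. The other 9 members kept their sign in every alternative that gave a value. The cause of these differences was not tested. Lum had few reads in 5 of 6 colonies, fewer than any other member.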
